A study of Mus musculus with 2 samples.

Results

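Imprinted genes that regulate growth were followed in rib cartilage cells of wild-type mice and of mice with the V156D knock-in of Matn1, the gene for the cartilage matrix protein matrilin-1. The members were the 10 genes H19, Dlk1, Meg3, Mest, Peg3, Plagl1, Cdkn1c, Grb10, Nnat and Peg10, and every probe set whose platform annotation names 1 of these symbols and no other was taken. Of the 10 genes, 9 had such a probe set, 28 probe sets in all, out of 18193 genes so measured on the array. H19 had none, because its probe set is annotated with H19 and the microRNA gene Mir675 together.

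Affymetrix Mouse Genome 430 2 arrays were used to measure RNA in 2 samples, 1 wild type and 1 V156D mutant. The mice were 5 days old, the cells were freed from dissected ribs with collagenase, and 6 µg of total RNA was labelled. The design text speaks of 5 littermates whose cells were pooled before extraction, which makes each array 1 pool, and no value below has a replicate or an error between animals. Strain, sex, the zygosity of the mutation and whether 5 animals were pooled for each genotype were not given in the sources used here. A ratio is the intensity of the mutant array over that of the wild-type array, and no difference between the 2 arrays can be assigned to the genotype.

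Imprinted genes are expressed from the copy inherited from 1 parent, and the copies are told apart by DNA methylation that is set in the germ line. Many of them act on fetal and early postnatal growth, and they are known to decline together in several organs as growth slows after birth. As a rule, genes expressed from the paternal copy favour growth (Mest, Peg3, Dlk1) and genes expressed from the maternal copy restrain it (H19, Cdkn1c, Grb10), although Plagl1, a paternally expressed zinc finger factor, was first described as a growth suppressor and is known to act on other imprinted genes. An expression array sums both copies, so nothing below says which copy was transcribed.

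H19 and Mest are also hosts of microRNAs, and the H19 probe set carries the name of one of them. By the RefSeq gene table, Mir675 lies within H19 and Mir335 within Mest. The mature microRNAs follow, with the seed, bases 2 to 8 from the 5′ end, in capitals. They come from RefSeq on GRCm38.p6, with the Mir675 hairpin at chr7:142577064-142577147 on the minus strand and the Mir335 hairpin at chr6:30741299-30741396 on the plus strand.
mmu-miR-675-5p: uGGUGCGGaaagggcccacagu
mmu-miR-675-3p: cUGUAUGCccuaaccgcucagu
mmu-miR-335-5p: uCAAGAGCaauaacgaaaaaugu
mmu-miR-335-3p: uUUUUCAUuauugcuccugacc
The array did not measure these mature forms. The shared H19 and Mir675 probe set, 1448194_a_at, read 12052 on the wild-type and 13426 on the mutant array, a log2 ratio of 0.16. It is given as the signal of both names and was not counted among the members.

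Methylation of CG pairs is the chemical mark of imprinting, so the start regions of the 3 members with the highest ratios at or above the signal floor, Mest, Peg3 and Grb10, are shown with their CG pairs in capitals. Each is the 250 bases before a RefSeq start site on GRCm38.p6, read 5′ to 3′ along the gene. Where a gene had several start regions, one with the most CG pairs is shown. They lie at chr6:30737803-30738052 on the plus strand for Mest, chr7:6730420-6730669 on the minus strand for Peg3 and chr11:12037421-12037670 on the minus strand for Grb10.
Mest: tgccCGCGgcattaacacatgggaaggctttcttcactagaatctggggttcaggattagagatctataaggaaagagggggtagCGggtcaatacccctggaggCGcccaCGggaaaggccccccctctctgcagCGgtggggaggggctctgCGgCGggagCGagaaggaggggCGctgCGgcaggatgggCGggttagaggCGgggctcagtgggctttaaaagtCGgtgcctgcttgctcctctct
Peg3: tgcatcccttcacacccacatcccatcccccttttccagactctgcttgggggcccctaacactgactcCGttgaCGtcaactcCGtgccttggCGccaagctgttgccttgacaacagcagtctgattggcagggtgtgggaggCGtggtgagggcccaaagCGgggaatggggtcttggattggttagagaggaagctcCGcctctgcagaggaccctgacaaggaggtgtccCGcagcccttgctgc
Grb10: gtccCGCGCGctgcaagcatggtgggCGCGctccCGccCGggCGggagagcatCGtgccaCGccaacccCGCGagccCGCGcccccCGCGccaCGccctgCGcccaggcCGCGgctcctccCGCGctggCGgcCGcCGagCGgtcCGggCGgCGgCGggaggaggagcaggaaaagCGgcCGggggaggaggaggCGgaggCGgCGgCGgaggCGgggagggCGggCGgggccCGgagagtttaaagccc
The Mest region holds 14 CG pairs, that of Peg3 holds 8 and that of Grb10 holds 40. A separate Mest start region held 7 and a separate one of Grb10 held 8. Across the 32851 start regions of the same length in the table the median was 6, and 29.4% had at least 14, 43.0% at least 8 and 1.31% at least 40. In all, 7 members had 11 such regions, a pair of which, both of Mest, share 247 bases. With that pair counted once, 9 of 10 regions held more than the median. The letters GGGGCCCC, the motif known for the Plagl1 protein and the same on both strands, were in 0.889% of all the regions and in 1 of the 11 of members, that of Peg3. Methylation and Plagl1 binding were not measured here. Whether the regions shown are those that carry the imprint was not checked, so a high CG count does not mark one as such.

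The imprinted growth genes were close to equal on both arrays. The median signal over probe sets, an intensity of 54.6, served as a floor, and 7 of the 9 measured members lay at or above it on both arrays, namely Meg3, Plagl1, Peg3, Grb10, Mest, Cdkn1c and Dlk1. None of the 7 differed at least 2-fold, against 0.909% of the 11329 genes at or above the floor, and none differed at least 1.5-fold, against 3.72%. At these background shares a count of 0 among 7 genes does not set the members apart. Their log2 ratios ran from -0.08 for Dlk1 to 0.41 for Mest, with a median of 0.16, beside a median of -0.02 and a central 95% from -0.55 to 0.49 over all genes at or above the floor. Of the 7, 4 had ratios above 0, whereas 44.8% of all these genes did. With quantile-normalized arrays, or with ratios corrected by loess, it was 6 of the 7, beside 51.5% and 51.0% of all genes. In bulk RNA fewer cells of a type and less RNA per cell cannot be told apart, and this holds for every ratio here.

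**Figure D1:**
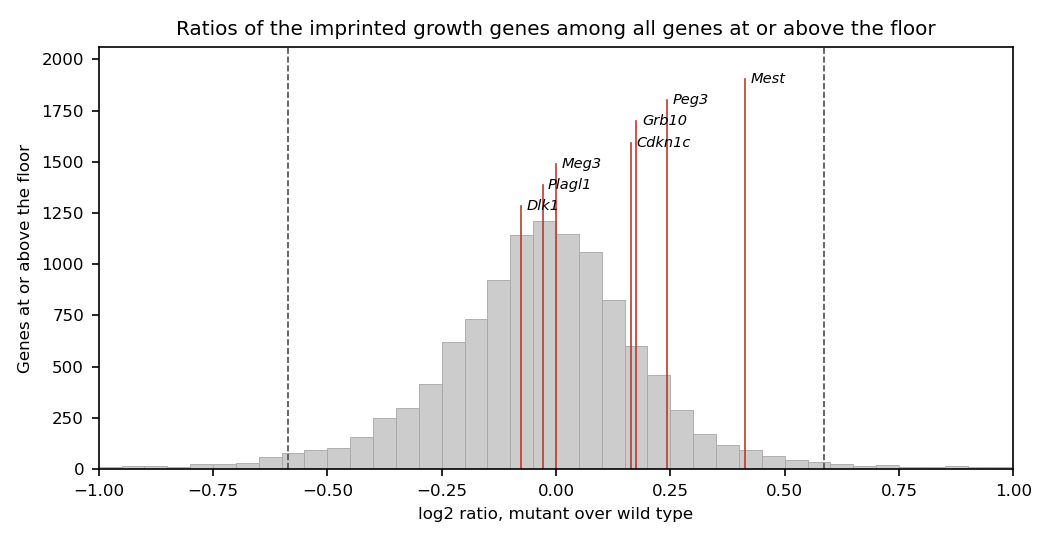
Histogram of the log2 ratio (mutant over wild type, x axis) of the genes at or above the signal floor (y axis, genes per bin), with red lines at the 7 imprinted growth genes and dashed lines at 1.5-fold; line height only spaces the names, and the 103 genes that differed at least 2-fold lie outside the axis. All 7 lie between the dashed lines, from -0.08 (Dlk1) to 0.41 (Mest).

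The same held for single probe sets. Of the 28, 23 lay at or above the floor, 16 with ratios above 0 and 7 below, with a median of 0.07. None of the 23 differed 1.5-fold, against 3.53% of all probe sets at or above the floor. Probe sets of 1 gene disagree even within these arrays. Over the 4878 genes read by several probe sets above this floor, the pooled SD between the ratios of a gene's probe sets was 0.19, which measures probe error and not error between samples.

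**Figure D2:**
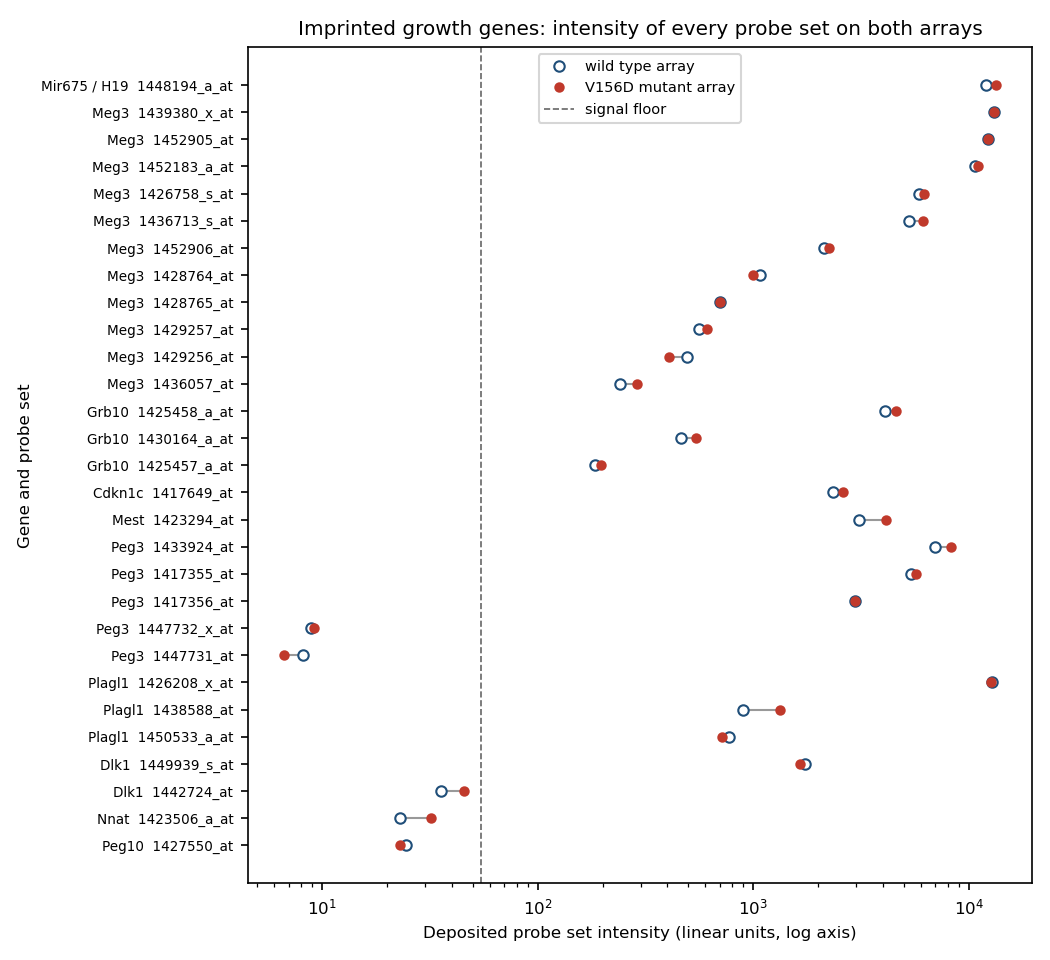
Deposited intensity (x axis, log scale) of every probe set of the imprinted growth genes (y axis, with the shared H19 and Mir675 probe set at the top) on the wild-type array (open circles) and the mutant array (filled circles), with the signal floor of 54.6 as a dashed line. The pairs lie close together, the widest at or above the floor being Plagl1 probe set 1438588_at at 900 and 1338, and 5 probe sets lie below the floor on both arrays.

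Mest, which encodes a membrane enzyme with a hydrolase fold and is transcribed in embryonic mesoderm and growing tissues, had the highest ratio of the 7. Its intensity was 3109 on the wild-type and 4139 on the mutant array, 33.1% higher. The log2 ratio of 0.41 is matched or passed by 397 of the 11329 genes, or 3.50%. Mest has 1 probe set here, so no other probe set bears on the value. It stayed between 0.39 and 0.47 when the arrays were rescaled or an offset was added. The choices of floor and of probe sets cannot move a gene with 1 probe set.

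Peg3, a paternally expressed zinc finger gene known from growth and maternal behaviour, was read by 5 probe sets. The brightest had 6985 on the wild-type and 8265 on the mutant array, a log2 ratio of 0.24. The other two above the floor had 5366 and 5669 (0.08), and 2970 and 2976 (0.00). All 3 had ratios above 0, with a mean of 0.11 ± 0.12 (SD over probe sets). The remaining probe sets, 1447731_at and 1447732_x_at, were between 6.62 and 9.20 on both arrays, far below the floor, and say little of Peg3. With them included, the mean over all 5 was 0.01.

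Plagl1 gave opposite signs by probe set. Probe set 1438588_at had 900 on the wild-type and 1338 on the mutant array, a log2 ratio of 0.57 that lies just short of 1.5-fold. Probe set 1426208_x_at had 12881 and 12621 (-0.03), and 1450533_a_at had 773 and 716 (-0.11). The mean was 0.14 ± 0.37 (SD over probe sets), nearly 2 times the SD of 0.19 pooled over genes, so no direction is settled for Plagl1. Names ending in _s_at, _x_at or _a_at mark multi-transcript probe sets, which can match more than 1 transcript, and without these only 1438588_at is left. Which transcripts each probe set reads was not analysed here.

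Dlk1 encodes a transmembrane protein with EGF-like repeats that holds back the maturation of fat and other mesenchymal cells and is related to the Notch ligands. Its informative probe set had 1742 on the wild-type and 1653 on the mutant array, a log2 ratio of -0.08. A second probe set, at 35.6 and 45.7, lay below the floor on both arrays and gave 0.36. The sign of Dlk1 therefore turned positive when both were averaged (0.14), and it was 0.00 after quantile normalization.

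Meg3, a maternally expressed long non-coding RNA from the same domain as Dlk1, was read by 11 probe sets, all above the floor. Their intensities spanned 240 to 13133 on the wild-type array and 288 to 13127 on the mutant array. Of the 11, 7 had ratios above 0 and 4 below, from -0.28 to 0.26, with a mean of 0.04 ± 0.15 (SD over probe sets). The brightest probe set had 13133 and 13127, a log2 ratio of -0.00, and the next, 1452905_at, had 12305 and 12288. The signals of Meg3 were thus nearly the same on both arrays, and the sign of its ratio depended on the probe set and on scaling.

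The maternally expressed inhibitors of growth that code for protein had small ratios above 0. Cdkn1c encodes p57Kip2, a CDK inhibitor that is needed for chondrocytes to leave the cell cycle and to become hypertrophic. It had 2333 on the wild-type and 2614 on the mutant array, a log2 ratio of 0.16 from 1 probe set. Grb10 encodes an adaptor that binds the insulin and IGF1 receptors and dampens their signal. Its 3 probe sets had 4087 and 4617 (0.18), 462 and 544 (0.24), and 184 and 196 (0.09). Their mean was 0.17 ± 0.07 (SD over probe sets), and all 3 were above 0. Grb10 and Cdkn1c kept ratios above 0 in each alternative that gave a value, 0.15 to 0.24 for Grb10 in 9 and 0.14 to 0.22 for Cdkn1c in 10. The floor settings cannot change either ratio, and the choice of probe sets cannot change that of Cdkn1c.

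Nnat and Peg10 were below the floor on both arrays. Nnat, which encodes a small membrane protein abundant in neurons and endocrine cells, had 23.1 on the wild-type and 31.9 on the mutant array. Peg10, a retrotransposon-derived gene needed in the placenta, had 24.5 and 23.0. Each has 1 probe set, and no change is read from values at this level.

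By parental copy there was no clear order. The 3 maternally expressed members at or above the floor, Meg3, Grb10 and Cdkn1c, had a median of 0.16 and ran from -0.00 to 0.18. The 4 paternally expressed ones, Dlk1, Plagl1, Peg3 and Mest, had a median of 0.11 and ran from -0.08 to 0.41. The 2 ranges overlap, and 2 members of each kind had ratios above 0. No test of the difference is possible with 1 array per genotype.

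Neighbours in the same imprinted domains were compared next, since genes of a domain can share control elements. Whether each neighbour is imprinted in these cells was not measured. Of 27 measured neighbours 23 lay at or above the floor, 13 with ratios above 0 and 10 below, with a median of 0.07 and none 1.5-fold. For comparison, the shares over all genes were 44.8% above 0 and 3.72% differing 1.5-fold or more in either direction. Beside the latter share, a count of 0 among 23 neighbours does not set them apart. Beside H19 lies Igf2, a fetal growth factor gene, which had 18353 on the wild-type and 19924 on the mutant array (0.12), and a mean over 2 probe sets of 0.31 ± 0.27 (SD over probe sets). Igf2r, which encodes the receptor that clears this growth factor and lies in another domain, had 3318 and 3959 (0.26). Ins2, also beside H19, had -0.01.

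The widest spread was in the domain of Dlk1 and Meg3. Rian, a maternally expressed non-coding RNA that hosts small nucleolar RNAs, had 2382 on the wild-type and 3311 on the mutant array, a log2 ratio of 0.48. All 4 of its probe sets were above 0, with a mean of 0.46 ± 0.09 (SD over probe sets). Mirg, a microRNA host from the same strand, had 909 and 761 (-0.26), and both of its probe sets were below 0, with a mean of -0.20 ± 0.07. Meg3, upstream of both, averaged 0.04, so the 3 non-coding genes of this domain did not share 1 ratio.

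The other domains were as follows in the ratios of their neighbours. In the domain of Cdkn1c the 7 neighbours at or above the floor lay between -0.27 for Phlda2, a placental growth restrainer, and 0.14 for Cd81. The others there were Slc22a18 (0.11, but -0.06 without multi-transcript probe sets), Osbpl5 (0.08), Nap1l4 (0.07), Tssc4 (0.01, but -0.01 after median centring) and the non-coding Kcnq1ot1, which was -0.01 by its brightest probe set and -0.20 ± 0.24 over 4 (SD over probe sets). Beside Mest, Copg2 had -0.00 and Klf14 had 0.27. Beside Peg3, Usp29 had 0.10 and Zim1 -0.11. Beside Grb10, Ddc had -0.27 and Cobl -0.18, and beside Plagl1, Phactr2 had 0.07. The 2 probe sets of Cobl had opposite signs, with a mean of -0.03 ± 0.21 (SD over probe sets). Ddc turned to 0.05 when a second probe set, below the floor, was averaged in. Next to Nnat, Blcap had 0.15. Around Peg10, which itself lay below the floor, Sgce had 0.12 and Ppp1r9a 0.16, whereas Asb4 had -0.09 and Tfpi2, a protease inhibitor gene, -0.48.

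**Figure D3:**
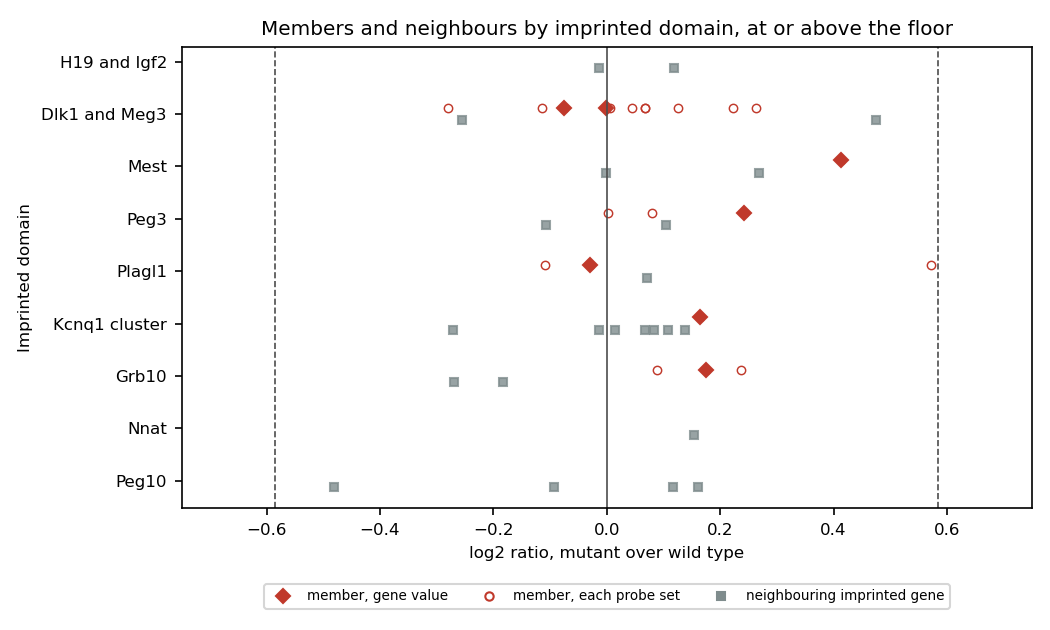
Log2 ratio (mutant over wild type, x axis) by imprinted domain (y axis), with filled diamonds for members by their brightest probe set, open circles for each of their probe sets and squares for neighbouring imprinted genes, all at or above the floor; dashed lines mark 1.5-fold. No point passes a dashed line, and the squares of the Dlk1 and Meg3 domain span -0.26 (Mirg) to 0.48 (Rian), the widest range of the 9 domains.

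Over the whole list of 55 other imprinted genes, 47 were measured and 38 lay at or above the floor. Of these 21 had ratios above 0 and 17 below, beside 44.8% of all genes above 0, with a median of 0.05. Of the 38, 1 differed at least 1.5-fold, beside 3.72% of all genes. That was Ampd3, an AMP deaminase gene imprinted in the placenta, with 219 on the wild-type and 114 on the mutant array, 1.91-fold lower. The next lowest were Tfpi2 at -0.48 and Atp10a at -0.35, the latter -0.18 ± 0.15 over its 4 probe sets (SD over probe sets). The highest were Sfmbt2, a Polycomb group gene, at 0.57 from 49.2 to 73.0 across the floor, Rian at 0.48 and Klf14 at 0.27. Magel2, also above 0, likewise reached the floor on the mutant array only. The members' median of 0.16 and this list's 0.05 were not tested against each other.

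Partners of the members were taken from 3 further lists. Of the insulin and IGF signalling genes, which Grb10 acts on, 18 lay at or above the floor, Grb14 on the mutant array only. Of these 14 had ratios above 0 and 4 below 0, beside 44.8% of all genes above 0, with a median of 0.17. Of the 18, 4 were at least 1.5-fold higher and none as much lower, beside 3.72% of all genes in either direction. Igfbp5, for an IGF-binding protein, was highest with 356 on the wild-type and 1383 on the mutant array, 3.88-fold by its brightest probe set, but the log2 ratios of its 2 probe sets had an SD of 1.35. The other 3, named after their values were seen, agreed better where they had several probe sets. Igf1, the growth factor gene, had 206 and 761, 3.70-fold, with all 4 probe sets above 0 and a mean of 1.71 ± 0.32 (SD over probe sets). Igfbp3 was 2.66-fold higher, with 1.40 ± 0.03 over 2 probe sets, and Igfbp6 was 1.58-fold higher by its 1 probe set. Pik3r1, for a regulatory subunit of PI3 kinase, was lowest at -0.41, although its 4 probe sets averaged -0.04. The receptors themselves, Insr and Igf1r, had 0.20 and 0.09.

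Of the cyclins, CDKs and CDK inhibitors, the group Cdkn1c belongs to, 17 lay at or above the floor. Of these 12 had ratios above 0 and 5 below 0, with a median of 0.09 and none 1.5-fold. Over all genes 44.8% had ratios above 0. The 1.5-fold share was 3.72%, so a count of 0 does not set this list apart. Cdk1, the mitotic kinase, was highest at 0.29 and the retinoblastoma gene Rb1 lowest at -0.37. The related inhibitors Cdkn1a and Cdkn1b had 0.03 and -0.07, and both turned sign when their probe sets were averaged, to -0.06 and 0.06. Of the Notch receptors, ligands and targets, to which Dlk1 is related, 13 lay at or above the floor, of which 7 had ratios above 0 and 6 below 0, with a median of 0.01. Notch3, a receptor of mural cells, was highest, 2.15-fold from 86.4 to 186, and the coactivator gene Maml1 lowest at -0.39. Maml1 was 0.22 without multi-transcript probe sets.

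The cells had the marker profile of cartilage, with other cell types present. All 14 chondrocyte markers lay above the floor, with a median ratio of 0.02 and a summed intensity of 166840 on the wild-type and 166879 on the mutant array. They ran from -0.38 for Ucma (-0.19 ± 0.26 over its 2 probe sets, SD over probe sets) to 0.15 for Col11a2. Markers of fibroblasts and perichondrium, tissues that also express imprinted genes, differed far more. Of 15, 13 were above 0, beside 44.8% of all genes, and 9 at least 1.5-fold higher, beside 3.72% in either direction. Their median was 0.97, with sums of 56329 and 86421. This list, like the others, was chosen with earlier results of these data known, so its counts are a description only. Of the 13, Scx reached the floor on the mutant array only, from 50.1 to 73.0. Kera was highest at 1.79 and Pdgfra lowest at -0.10. Of 12 endothelial markers 8 lay at or above the floor, 7 of them above 0, and the sums were 946 and 1438. Cdh5 was highest at 1.39 and Egfl7 lowest at -0.19 (0.06 over all its probe sets). Of the 7, Emcn reached the floor on the mutant array only, from 38.2 to 96.4. Pecam1 and Tek, defining markers of this type, lay below the floor by their mean over the arrays. Pecam1 had 35.3 on the wild-type and 74.8 on the mutant array, and Tek had 27.7 and 55.1. Both thus reached the floor on the mutant array only.

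Further cell types were checked the same way, beside 44.8% of all genes with ratios above 0. Mural cell markers had 6 of 8 at or above the floor, all 6 above 0, from 0.06 for Cspg4 to 1.48 for Rgs5, with sums of 4562 and 5414. Myh11 (31.3 on the wild-type and 81.1 on the mutant array) and Abcc9 (31.8 and 77.8) lay below the floor by their mean. They reached it on the mutant array only. Of 9 adipocyte and preadipocyte markers 6 lay at or above the floor and 5 of these above 0, with Cd36 highest at 1.51 and Pparg lowest at -0.57. The sums were 1252 and 2195, and the fat cell hormones Adipoq and Lep lay below the floor. Most of these sums was Fabp4 (562 and 914), Lpl (253 and 613) and Cd36 (134 and 382). Skeletal muscle, in which H19, Meg3 and Dlk1 are abundant around birth, had 7 of 16 markers at or above the floor. Of these 2 had ratios above 0 and 5 below 0, with Des highest at 0.45 and Myod1 lowest at -0.74. Myod1 went from 86.8 to 52.0 and so reached the floor on the wild-type array only. The muscle sums were 2943 and 2318, of which Tnnt3 alone gave 1930 and 1388. Myh3, Myh8, Myf5, Pax7 and Myog lay below the floor. Blood and macrophage markers had 4 of 9 at or above the floor, from -0.17 for Cd68 to 0.31 for Alas2, with Ptprc and Itgam below it, and sums of 457 and 486. Neuron and Schwann cell markers had 3 of 8, from 0.18 for Sox10 to 0.21 for Mbp (-0.05 over all its probe sets), with Tubb3 and Nefl below the floor, and sums of 2990 and 3430. Most of these sums was S100b, which chondrocytes express as well, and the 7 markers without it summed to 299 and 324. The part of these cell types in the ratios of Mest, Rian or the other imprinted genes was not tested.

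**Figure D4:**
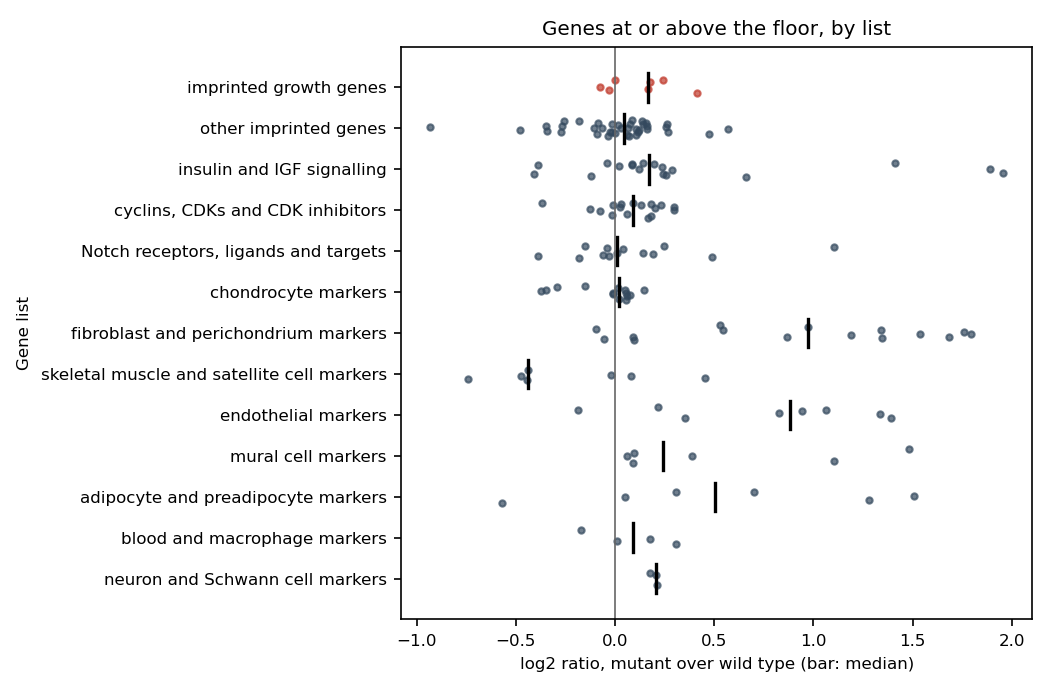
Log2 ratio (mutant over wild type, x axis) of the genes at or above the floor in each list (y axis), 1 point per gene with a black bar at the list's median. The imprinted growth genes, in red, lie between -0.08 and 0.41 with a median of 0.16, whereas the fibroblast and perichondrium markers reach 1.79 with a median of 0.97. All lists were chosen with earlier results of these data known.

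The median intensity was 54.3 on the wild-type and 55.1 on the mutant array, whereas the sum over probe sets was higher on the wild-type array, 14520500 against 14091200. The mutated gene Matn1 had 4373 and 4340, which does not tell the alleles apart. Sex-linked transcripts differed between the pools, Xist at 7755 and 5006 and Eif2s3y at 230 and 490. Their part in the ratios of the imprinted genes was not tested.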

How the data were processed

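RNA of 1 wild-type and 1 V156D mutant pool was measured on 1 array each. The deposited table holds 1 linear intensity per array for each of 45037 probe sets. The log2 of each of the 90074 deposited intensities had 6 significant digits (within 1e-08), as antilogs of rounded log2 values would. MAS5 is named, per the submitters' processing notes, without version or settings, and the scaling, background step and genome build were not given in the sources used here, so the method that gave those log2 values and how low signals were treated are unknown. Gene names are those of GEO's platform annotation, in which 34945 probe sets had 1 symbol, 932 several and 9160 none. Of the first, 34741 matched a RefSeq table of GRCm38.p6 by Entrez identifier and 0 changed name. The log2 of each value was used as given. The probe set of a gene with the brightest mean log2 signal stands for that gene, and the floor is the 50th percentile of that mean over probe sets. With 1 array per group there is no test and no p-value. The number of arrays limits every value.

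The 10 members and the 12 other lists were chosen with earlier results of these data known. The genes named are all members, domain neighbours reaching the floor, 3 other imprinted genes at each end, and 1 gene at each end of every further list. Others (Igf2, Igf2r, Insr, Igf1r, Cdkn1a, Cdkn1b, Matn1, Xist, Eif2s3y and low markers) were added by role. Some genes that reached the floor on 1 array only and the main parts of some marker sums are named as limits. The gene step was tested on simulated data. Python 3.11.15, numpy 2.4.6, pandas 2.3.3 and statsmodels 0.14.6 were used.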

Additional observations from a re-analysis of the deposited data

How the results depend on the processing

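The alternatives were median centring, quantile normalization, a loess correction (span 0.3), an offset of 32 before log2, a lower floor (40th percentile), a higher one (60th percentile) or none, the mean over all probe sets or over those at or above the floor, dropping multi-transcript probe sets (_s_at, _x_at and _a_at), and a 3-fold threshold. No paired analysis was possible because each genotype has 1 array. The count of members that differed 1.5-fold or 2-fold stayed at 0 in every alternative run. The members' median lay between 0.14 and 0.24 and that of the other imprinted genes between 0.01 and 0.08. Of the 7 members, 6 had ratios above 0 after quantile normalization, after loess and over probe sets at or above the floor, and 7 over all probe sets, 4 of 5 without multi-transcript probe sets, 5 of 9 with no floor, and 4 of 7 in the other settings. The signs of Meg3 (-0.02 to 0.05), Plagl1 (-0.05 to 0.57) and Dlk1 (-0.10 to 0.36) depended on the choice. Many values could not move, since the floor settings leave each member's ratio unchanged and averaging cannot change a gene with 1 probe set. Likewise, a count of 0 at 2-fold fixes 0 at 3-fold. With these included, 122 of 127 values moved by less than the SD of 0.19 between probe sets of a gene. The other 5 were Dlk1 and Peg3 over all probe sets (0.14 and 0.01), Dlk1 and Plagl1 without multi-transcript probe sets (0.36 and 0.57), and Nnat with the offset (0.21). Scaling moved the median of all genes by under 0.1. Signal near the floor limits Nnat and Peg10.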

Other observations

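Transcripts of Snrpn, a splicing protein gene of another imprinted domain, share probe sets with Snurf, and these shared probe sets lay outside the lists. Among the other imprinted genes, Snrpn was counted by a probe set of its own. Of the 6 shared probe sets 4 lay at or above the floor. Probe sets 1415895_at and 1415896_x_at had 1241 and 694 on the wild-type array, and 1502 and 862 on the mutant array, log2 ratios of 0.28 and 0.31. Probe set 1435716_x_at went the other way, from 300 to 204 (-0.56), and 1421063_s_at had 0.05. The 1 probe set tied to Snrpn alone had 68.2 and 65.1 (-0.07). The probe sets of this gene pair thus gave no common direction.

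Ube3a, a ubiquitin ligase gene that is imprinted in neurons, had 839 on the wild-type and 661 on the mutant array, and all 4 of its probe sets at or above the floor were below 0, with a mean of -0.37 ± 0.19 (SD over probe sets). Gnas, for a G protein subunit, had 10108 and 10641, and its 4 probe sets at or above the floor were all above 0, with a mean of 0.35 ± 0.26. Both genes were named after their values were seen.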
